A study of Mus musculus with 11 samples.

Results

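The 3166 regions described here were places where Myc-tagged RARα signal was called near the end of a protein-coding gene in 1 control library and 1 Foxc1 mutant library of mouse cortical progenitors, with a maximum in the mutant library below a fixed limit. They were selected on measured values. A region was a peak of control replicate 1 (below, control 1) on chromosomes 1 to 19 or X that touched a window of 1 kb on either side of either end of a protein-coding gene. It also had to overlap, by 1 bp or more, a peak of mutant replicate 3 (mutant 3) that touched such a window and whose maximum signal was under 16. Regions that also overlapped a mutant 3 peak with a maximum of 16 or more were left out. Control 1 held 86444 peaks, of which 6878 lay at gene ends, and the 3166 members were drawn from those.

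The series profiled the chromatin of Prom1+ neural progenitors, enriched with magnetic beads from the cortex of mouse embryos at embryonic day 14. All libraries described here came from CUT&RUN with an antibody to the Myc tag, with 0.05% digitonin to open the cells. There were 3 control and 3 Foxc1 mutant Myc-tag libraries. Another 5 libraries with an isotype antibody were not analysed here, so no background from a non-specific antibody stands beside the values. The tagged receptor was common to both genotypes. The sources used here do not give the Foxc1 allele, the genotype of the controls or the way the tagged receptor was expressed. Whether the replicates were separate embryos or litters is not stated, so p-values measure only the spread between these libraries, and the spread between libraries may be technical. Peak lists hold no expression values, so the labelled cell type could not be checked against its markers.

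RARα is a nuclear receptor that binds retinoic acid. It pairs with a retinoid X receptor on DNA, classically at direct repeats of a short half-site, and recruits corepressors or coactivators according to whether ligand is bound. In the embryonic forebrain retinoic acid comes largely from the meninges, the membranes over the cortex, and Foxc1 is a transcription factor that the meninges need to form. The study's title names suppression of Notch signalling and Sox2 by meningeal retinoic acid, and comparing receptor occupancy between genotypes addresses that question.

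Members lay more often within 1 kb of gene starts than other gene-end peaks of control 1 did, and those starts were richer in CpG dinucleotides. Mutant 3, whose peaks formed the selection, itself favoured CpG-rich starts, so these traits are not independent of the selection. CpG-rich promoters are common at genes that most cells use, and CpG-poor promoters at genes restricted to few tissues. The following promoter windows show that range among members. Each runs 5′ to 3′ on the gene's strand from 250 bases before to 50 bases after the RefSeq start in GRCm38.p6, and capitals mark CpG. Sox12, a neuronal SoxC transcription factor gene, had 47 CpG in its 300 bases (chr2:152397997-152398296, minus strand), Rpl35, a ribosomal protein gene, had 27 (chr2:39005082-39005381, minus), and Dhx30, an RNA helicase gene, had 26 (chr9:110117567-110117866, minus). Dhrs3, whose product reduces retinaldehyde back to retinol and which is a known retinoic acid target, had 21 (chr4:144892577-144892876, plus).
Sox12: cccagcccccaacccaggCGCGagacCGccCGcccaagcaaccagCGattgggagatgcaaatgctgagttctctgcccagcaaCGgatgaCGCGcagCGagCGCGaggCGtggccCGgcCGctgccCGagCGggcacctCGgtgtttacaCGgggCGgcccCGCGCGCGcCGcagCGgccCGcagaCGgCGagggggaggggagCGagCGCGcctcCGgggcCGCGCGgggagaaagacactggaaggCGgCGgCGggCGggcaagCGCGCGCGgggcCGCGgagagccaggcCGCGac
Rpl35: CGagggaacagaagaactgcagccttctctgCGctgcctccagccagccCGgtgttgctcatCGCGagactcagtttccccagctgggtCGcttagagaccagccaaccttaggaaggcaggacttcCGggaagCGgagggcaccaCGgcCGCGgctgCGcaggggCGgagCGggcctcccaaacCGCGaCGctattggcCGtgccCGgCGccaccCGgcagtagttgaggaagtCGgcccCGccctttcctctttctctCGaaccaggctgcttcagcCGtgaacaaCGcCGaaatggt
Dhx30: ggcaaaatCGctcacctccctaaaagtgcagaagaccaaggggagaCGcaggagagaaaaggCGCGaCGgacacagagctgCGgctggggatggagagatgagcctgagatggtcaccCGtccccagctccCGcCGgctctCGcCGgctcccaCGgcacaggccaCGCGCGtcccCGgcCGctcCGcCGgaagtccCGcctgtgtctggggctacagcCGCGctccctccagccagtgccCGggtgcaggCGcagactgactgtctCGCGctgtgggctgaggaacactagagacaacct
Dhrs3: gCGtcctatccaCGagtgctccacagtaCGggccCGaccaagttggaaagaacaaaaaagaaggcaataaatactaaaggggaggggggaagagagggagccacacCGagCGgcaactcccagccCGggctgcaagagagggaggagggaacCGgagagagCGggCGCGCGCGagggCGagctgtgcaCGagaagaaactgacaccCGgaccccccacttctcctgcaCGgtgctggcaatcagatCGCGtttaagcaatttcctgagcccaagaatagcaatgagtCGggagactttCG

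At the CpG-poor side stood H2bu2, a histone H2B gene with 11 CpG (chr11:58948661-58948960, plus), the neuronal transcription factor gene Neurod6 with 3 (chr6:55681214-55681513, minus), and the olfactory receptor gene Olfr830 with 0 (chr9:18875079-18875378, plus). H2bu2 and Olfr830 are shown because their members were called in 3 of the 4 libraries that the selection did not use. The capitals again mark CpG.
H2bu2: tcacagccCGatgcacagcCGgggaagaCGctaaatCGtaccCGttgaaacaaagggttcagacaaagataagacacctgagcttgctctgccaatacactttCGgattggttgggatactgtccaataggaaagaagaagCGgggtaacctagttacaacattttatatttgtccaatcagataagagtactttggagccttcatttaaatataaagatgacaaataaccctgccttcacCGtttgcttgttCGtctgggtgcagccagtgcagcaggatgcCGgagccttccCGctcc
Neurod6: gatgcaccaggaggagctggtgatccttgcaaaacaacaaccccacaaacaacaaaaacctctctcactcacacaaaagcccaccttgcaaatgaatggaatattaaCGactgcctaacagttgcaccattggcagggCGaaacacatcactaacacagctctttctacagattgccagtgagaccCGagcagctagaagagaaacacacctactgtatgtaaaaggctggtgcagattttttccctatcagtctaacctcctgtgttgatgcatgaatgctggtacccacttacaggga
Olfr830: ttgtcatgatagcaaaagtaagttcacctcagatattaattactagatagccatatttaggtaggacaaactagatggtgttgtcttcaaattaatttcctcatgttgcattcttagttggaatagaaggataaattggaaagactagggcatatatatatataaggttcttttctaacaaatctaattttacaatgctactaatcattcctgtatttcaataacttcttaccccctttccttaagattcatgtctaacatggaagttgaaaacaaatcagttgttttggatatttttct

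Signal heights are given in steps, the smallest unit by which a library's maximum signal rose. A step was worth 0.0500 signal units in control 1 and 1.63 in mutant 3, so steps are not comparable between libraries as amounts of receptor. The limit of 16 signal units in mutant 3 fell between 9 and 10 steps. Sorted by the highest mutant 3 peak they touched, 33 members had 2 steps, 399 had 3, 808 had 4, 811 had 5, 569 had 6, 323 had 7, 149 had 8 and 74 had 9. Just inside the limit the 74 members stood at 14.7 signal units, and just outside it 26 regions stood at 16.3. The members' median in mutant 3 was 5 steps and their mean height percentile among its peaks 63.2, against 4 steps and 55.0 for all mutant 3 overlaps of control 1 peaks, so they were lower only by comparison with the tall set. In control 1 the members ran from 5 to 29 steps, and 562 of them had 9, the commonest height. Their median was 10 steps, the same as that of all control 1 peaks.

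The libraries differed widely in how much was called. Control 1, control 2 and control 3 held 86444, 11709 and 30054 peaks, which covered 215, 3.87 and 8.60 Mb. Mutant 1, mutant 2 and mutant 3 held 54091, 410453 and 513260 peaks, which covered 38.8, 328 and 417 Mb. Median peak width was 2327 bp in control 1 against 259 to 737 bp in the other libraries, so control 1 stood apart. The share of peaks at gene ends was 7.96% in control 1 and 2.51% to 4.44% elsewhere. Sequencing depth is unknown, because peak lists carry no read counts.

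In the 4 libraries that the selection did not use, members were called about as often as gene-end peaks of control 1 in general. Control 2 had a peak over 18 of the 3166 members (0.569%), against 0.669% of all 6878 gene-end peaks of control 1. Control 3 had a peak over 69 members (2.18%), against 2.57%. Both control libraries thus called almost none of the regions that control 1 and mutant 3 shared, as of gene-end peaks in general. No member was called in both, against 3 of the 6878 gene-end peaks (0.0436%). Mutant 1 had a peak over 287 members (9.07%), against 8.67%. Mutant 2 had a peak over 1653 members (52.2%), against 49.5%. Over all 86444 control 1 peaks, near a gene or not, the shares were 1.23%, 2.93%, 7.67% and 49.1% in the same order. The overlap with mutant 3 itself, 62.3% of gene-end peaks, was part of the selection and is given only as background.

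**Figure D1:**
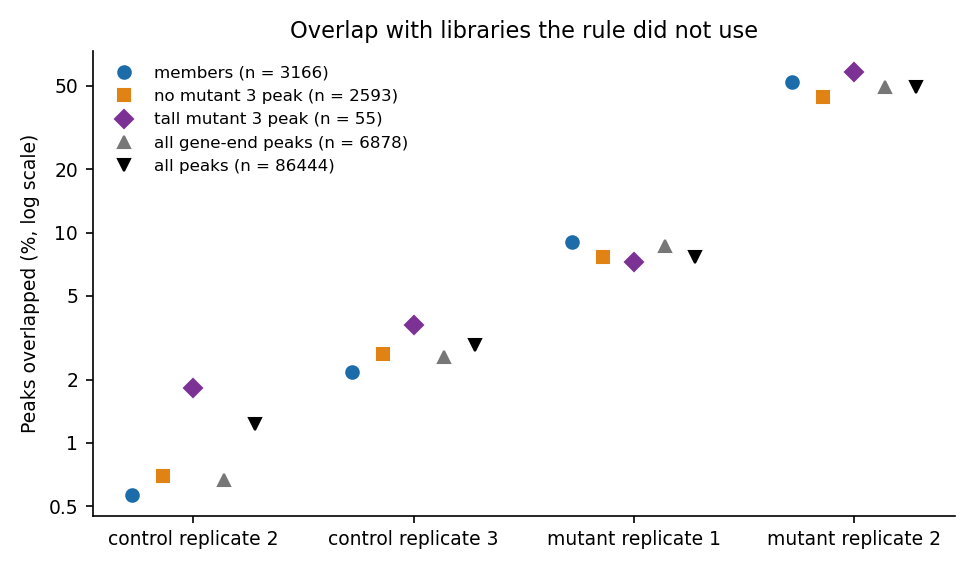
Percent of control replicate 1 peaks overlapped by 1 bp or more in each library the selection did not use (log scale), for 5 sets of control replicate 1 peaks. Each point is 1 set in 1 library, and libraries range from 0.569% to 52.2% for the members. As a ratio, the sets differ most in control replicate 2, from 0.569% for members to 1.82% for the tall set, which rests on 1 region there. In percentage points they differ most in mutant replicate 2, from 44.2% with no mutant replicate 3 overlap to 58.2% for the tall set.

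By genotype, the mean share of members called was 1.37% ± 1.14 (SD, n = 2 libraries) in control and 30.6% ± 30.5 (SD, n = 2) in mutant. The difference of 29.3 percentage points had p = 0.33 in a two-sided exact permutation test, the smallest value that 4 libraries allow. Both mutant libraries were above both control libraries, but the SD between the mutant libraries exceeded the difference. The value rested on mutant 2: without it the difference was 7.69 points, and without mutant 1 it was 50.8. When the lists were cut to equal length the difference was 2.08 points, and when 500 bp around each member's maximum replaced the whole peak it was 13.7.

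Members were set beside the 2593 gene-end peaks of control 1 that overlapped no mutant 3 peak. Members were called less often in control 2 and control 3, by -0.126 and -0.482 points, and more often in mutant 1 and mutant 2, by 1.39 and 8.02 points. In the controls the called counts were equal, 18 and 18 in control 2 and 69 and 69 in control 3, so only the set sizes differed. The mean difference was 2.20 points ± 3.96 (SD, n = 4 libraries), with p = 0.5 in a two-sided exact sign-flip permutation test (adjusted p = 0.667 over 4 set comparisons, 0.13 being the smallest unadjusted p possible). It was 0.261 without mutant 2, 0.149 with lists of equal length and 0.927 with 500 bp around each maximum. Against the 55 gene-end peaks of control 1 that overlapped a tall mutant 3 gene-end peak (maximum of 16 or more), members were called less often in control 2, control 3 and mutant 2 and more often in mutant 1. That mean difference was -1.72 points ± 3.20 (SD, n = 4; exact permutation p = 0.5, adjusted p = 0.667), -0.305 without mutant 2 and -2.89 without mutant 1. Neither comparison stood outside the spread between libraries, and the tall set had only 1, 2, 4 and 32 called regions in the 4 libraries.

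Where members were called, their peaks were ranked within each library by maximum signal. The members' mean percentile was 1.58 points ± 6.17 (SD, n = 4 libraries) above that of the peaks with no mutant 3 overlap, with exact permutation p = 0.75 (adjusted p = 0.75). Its sign turned without control 2 (-0.731). It was 4.02 without control 3 and 0.675 without mutant 2. Below the tall set, the members' mean percentile lay by -17.4 points ± 11.1 (SD, n = 4). It was lower in 4 of 4 libraries, by -32.9, -17.9, -10.7 and -8.37 points in control 2, control 3, mutant 1 and mutant 2. The exact permutation p was 0.13, the smallest possible, and 0.5 after adjustment, and the control 2 value rested on 1 tall region.

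Counting the 4 unused libraries together, 1361 members (43.0%) had a peak in none, 1590 (50.2%) in 1, 208 (6.57%) in 2, 7 in 3 and 0 in all 4. Over all 6878 gene-end peaks the shares for none, 1 and 2 were 45.3%, 48.2% and 6.30%. For 3 libraries the share was 0.221% of members and 0.233% of all gene-end peaks (16 peaks), so members were not above that background. Of the members, 169 (5.34%) were called in both mutant 1 and mutant 2, against 4.86% of all gene-end peaks. The 7 members called in 3 unused libraries were at Ralyl, Lrrc14 with Recql4, Lrba, H2bu2, Olfr830, Txndc2 and Nktr.

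H2bu2 had 11 steps in control 1, none in control 2, 2 in control 3, 4 in mutant 1, 5 in mutant 2 and 5 in mutant 3 (chr11:58946052-58951849). This peak spanned the whole short gene, and its maximum lay 227 bp upstream of the start. Olfr830 had 11, none, 2, 5, 3 and 6 steps in the same order (chr9:18871586-18877264), with its maximum 152 bp upstream of the start. The highest of the 7 in control 1 was the peak near Ralyl, an RNA-binding protein gene, with 17, 2, none, 6, 6 and 7 steps (chr3:14181485-14182592). In all 7, the control 2 or control 3 peak was 2 steps high, and no region had both. A height of 2 steps was the lowest in those libraries as well as their median.

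Outside the pair of libraries that formed the selection, the highest members of control 1 were called in mutant 2 or nowhere. Gm42346 reached 29 steps and was called in mutant 2 (6 steps) and mutant 3 (8) only. Rnf130, which encodes a RING finger ubiquitin ligase, reached 21 steps in control 1 and was called in mutant 3 alone (4 steps). Atad2 and Plxdc2, at 21 steps each, had 4 steps in mutant 2 and 4 and 5 in mutant 3. Casc1 with Etfrf1, at 21 steps, had 2 and 6. The peak over Surf1, Rpl7a and Med22 had 20 steps in control 1, 5 in mutant 2 and 6 in mutant 3. Another 2 members, at Kcmf1 and Zfp324, tied with it at 20 steps in control 1 and had 4 and 7 steps in mutant 3. None of these 8 regions was called in control 2, control 3 or mutant 1, and Kcmf1 and Zfp324 were not called in mutant 2 either. Those 4 libraries called 0.569%, 2.18%, 9.07% and 52.2% of all members, in the same order.

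The overlap did not place the maxima together. The distance between the maximum in control 1 and that of the mutant 3 peak had a median of 761.5 bp over the members, and 17.6% were within 250 bp. Over all control 1 peaks that overlapped a mutant 3 peak the median was 766 bp and the share 17.5%. For mutant 2 the members' median was 837 bp with 17.4% within 250 bp, against 775 bp and 17.3%. Members were somewhat wider than the peaks without overlap, with medians of 2529.5 and 2342 bp, and the wider a peak the more it can overlap.

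The strand was known for 79.9% of genes, and 2615 members touched at least 1 such gene. A start or 3′ end counted as touched when the peak reached the window of 1 kb on either side of it. Of these members, 1819 (69.6%) touched a gene start and 796 (30.4%) a 3′ end only. Among the peaks that overlapped no mutant 3 peak 53.3% touched a start, among those that met only mutant 3 peaks away from gene ends 50.4%, among all gene-end peaks of control 1 60.8%, and in the tall set 95.8%. The members thus lay between the unshared peaks and the tall set. Starts were touched by 43.2% and 44.0% of gene-end peaks in control 2 and control 3, by 52.5% and 51.1% in mutant 1 and mutant 2, and by 61.4% in mutant 3. These shares are descriptions without a test, because all peaks came from 1 library and the sets were formed from mutant 3.

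The gap appeared in each quartile of peak width, and the part of width in it was not tested. In the widest quartile the median widths still differed, at 3851 bp for members and 3607.5 bp for peaks without a mutant 3 overlap. From the narrowest to the widest quartile of gene-end peaks, 68.1%, 66.1%, 70.0% and 73.4% of members touched a start, against 53.4%, 52.3%, 52.4% and 55.8% of peaks without a mutant 3 overlap. Members more often touched at least 2 genes (18.8% against 13.1%) and at least 2 starts (9.56% against 2.47%), as at head-to-head gene pairs. Mcm7 and Ap4m1 are such a pair, and Mcm7 encodes a subunit of the replicative helicase. Their shared region had 17 steps in control 1, none in control 2 or control 3, 5 in mutant 1, 4 in mutant 2 and 6 in mutant 3.

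**Figure D2:**
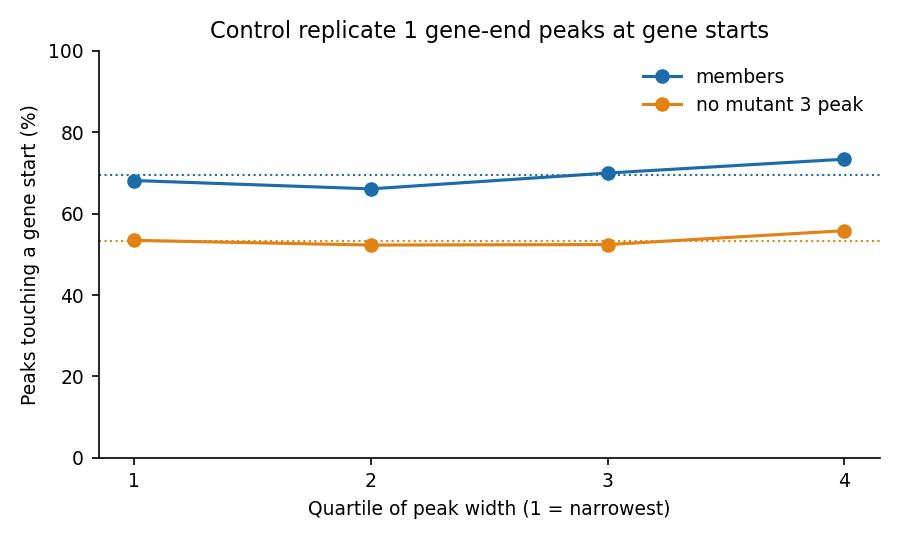
Percent of gene-end peaks of control replicate 1 that touched a gene start (y axis) by quartile of peak width (x axis), for members and for peaks with no mutant replicate 3 overlap. A start counts as touched within 1 kb on either side. Dotted lines are the shares over all widths, 69.6% and 53.3%, and the members' points are higher in all 4 quartiles.

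The maximum signal of members also lay closer to starts. Its median distance to the nearest start was 929 bp, against 1139 bp for peaks without a mutant 3 overlap, and 29.1% against 20.2% lay within 500 bp. At 3′ ends 25.7% and 21.6% lay within 500 bp. At Psmd6, which encodes a proteasome subunit, the maximum was 16 bp upstream of the start, and at Rara itself it was 85 bp downstream. At Dhrs3 it was 2372 bp downstream, so the region touched the start but the height came from within the gene.

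**Figure D3:**
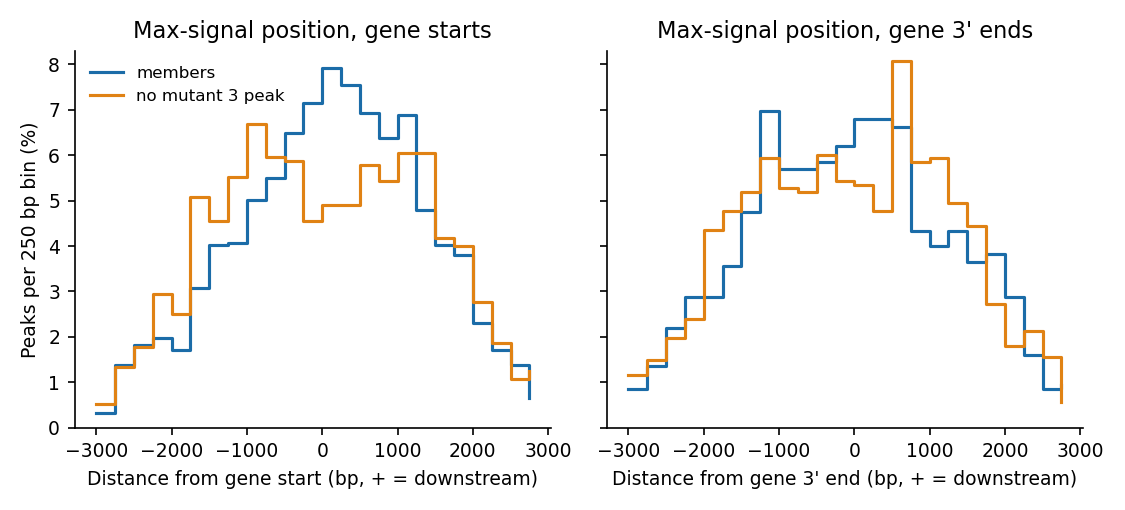
Position of the maximum signal relative to the nearest gene start (left) and gene 3′ end (right), in bp with positive values downstream, as the percent of peaks per 250 bp bin. At starts the members' curve is highest near 0 and the curve of peaks without a mutant replicate 3 overlap dips there, with 29.1% and 20.2% within 500 bp. The gap is not independent of the selection, which required a mutant replicate 3 peak at a gene end.

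Members touched the starts of 2058 genes with known strand, and 1908 of them (92.7%) had a RefSeq promoter window within 1 kb of the gene's start. A member did not have to overlap the promoter window itself. Those windows had a median of 19 CpG, and 65.1% had 15 or more. Peaks with no mutant 3 overlap touched the starts of 1163 genes, 88.8% with a window, and there the median was 12 and the share 46.0%. Over all 15533 usable windows, 71.8% of genes, the median was 14 and the share 48.6%. The 55 starts in the tall set had a median of 19 and a share of 69.1%. CpG content at starts without a mutant 3 overlap was thus near that of all genes, while that of the members was higher. The sets were split by overlap with mutant 3. That library itself touched 69.1% of starts with 15 or more CpG and 45.8% of the others. The difference is therefore not independent of the selection.

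**Figure D4:**
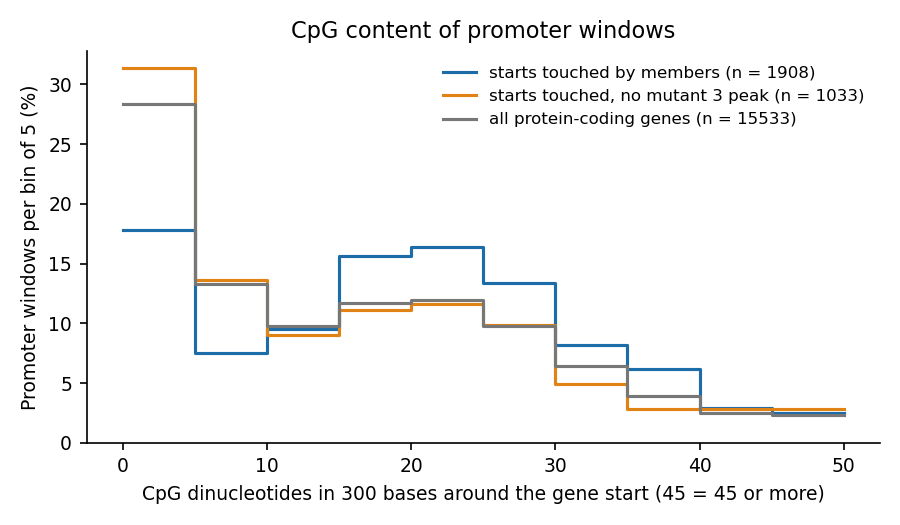
Percent of 300-base promoter windows (y axis) by number of CpG dinucleotides in bins of 5 (x axis), for starts touched by members, starts touched by peaks with no mutant replicate 3 overlap, and all protein-coding genes with a window. The members' line is below the others under 10 CpG and above them from 15 to 40.

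The preference for CpG-rich starts was not shared by all libraries. A CpG-rich start (15 or more CpG) was touched by a peak in 25.8% of cases in control 1 and a CpG-poor start in 17.7%, a ratio of 1.46. In mutant 3 the shares were 69.1% and 45.8%, a ratio of 1.51. In mutant 1 they were 5.55% and 5.75%, and in mutant 2 35.4% and 35.3%. In control 2 (0.490% and 0.664%) and control 3 (0.954% and 2.07%) the CpG-poor starts were touched more often. Of the 6 libraries, the pair that formed the selection had the highest ratios. Base composition moved with CpG content, with a median GC content of 59% in member windows, 56% in windows without a mutant 3 overlap and 56.7% in all windows, and its part in these shares was not tested.

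Among the members, the unused libraries likewise did not call CpG-rich starts most often. Mutant 2 had a peak over 49.7% of the 1102 members at CpG-rich starts, 53.8% of the 604 at CpG-poor starts and 54.5% of the 796 at 3′ ends only. Mutant 1 had 8.35%, 10.1% and 10.3%. Control 3 had 1.81%, 1.66% and 2.64%, and control 2 had 0.272%, 0.828% and 0.754%.

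Short motifs in the windows followed base composition in part. Each was searched on both strands, and the share of all 15533 windows stands last. The GC box GGGCGG was in 56.8% of member windows, 46.4% of windows without a mutant 3 overlap and 47.4% of all. The ETS-type motif CCGGAAG was in 18.4%, 10.6% and 12.2%, and the CCAAT box CCAAT in 40.5%, 38.0% and 39.8%. TATAAA was in 10.6%, 16.1% and 13.8%. The E-box CACGTG was in 8.54%, 7.94% and 8.11%, and the cyclic AMP element TGACGTCA in 3.04%, 2.81% and 2.41%. Among windows with 15 or more CpG, the GC box was in 76.3%, 77.9% and 77.6%, so its excess was absent there, and CCGGAAG was in 24.6%, 17.3% and, of all 7551 such windows, in 1513. Motifs may overlap each other, and a match describes letters only.

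The nuclear receptor half-site AGGTCA was in 11.3% of member windows, 15.5% of windows without a mutant 3 overlap and 14.2% of all, and within CpG-rich windows in 9.73%, 7.79% and 9.28%. The direct repeats AGGTCANAGGTCA and AGGTCANNAGGTCA were in 0 member windows, and in 9 and 0 of all 15533. The direct repeat with a spacer of 5, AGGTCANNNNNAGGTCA, which is the classical retinoic acid response element, was in 1 window of the 15533. That window belonged to a member, at the chemokine gene Ppbp (chr5:90768268-90768567, plus strand), which was named after its match was seen. Capitals mark the match, which reads on the opposite strand.
Ppbp: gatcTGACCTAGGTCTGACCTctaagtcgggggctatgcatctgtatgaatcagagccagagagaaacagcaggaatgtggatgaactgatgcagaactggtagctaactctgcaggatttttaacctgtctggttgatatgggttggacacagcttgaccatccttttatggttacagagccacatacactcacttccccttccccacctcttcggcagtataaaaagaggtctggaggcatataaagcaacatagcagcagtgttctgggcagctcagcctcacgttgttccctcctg

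The member at Ppbp had 7 steps in control 1, 4 in mutant 2 and 5 in mutant 3, and no peak in control 2, control 3 or mutant 1 (chr5:90766839-90769366). Its control 1 height was near the low end of the members' range, and its mutant heights were at the members' medians of 4 and 5 steps. A looser form of this repeat, allowing other letters in the half-sites, was in 2 member windows, 1 window without a mutant 3 overlap and 14 of all. The windows cover promoters only, so nothing is said of elements elsewhere in the peaks, whose own sequence was not analysed here.

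Members touched 3606 of the 21627 protein-coding genes, which is 16.7%, and each gene list is set beside that background. Peaks with no mutant 3 overlap touched 13.0% of all genes. Lists of genes that most cells use had the highest shares, and the retinoic acid, Notch and progenitor lists lay between 12.1% and 20%. All 20 lists are given, without a test, as counts.

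**Figure D5:**
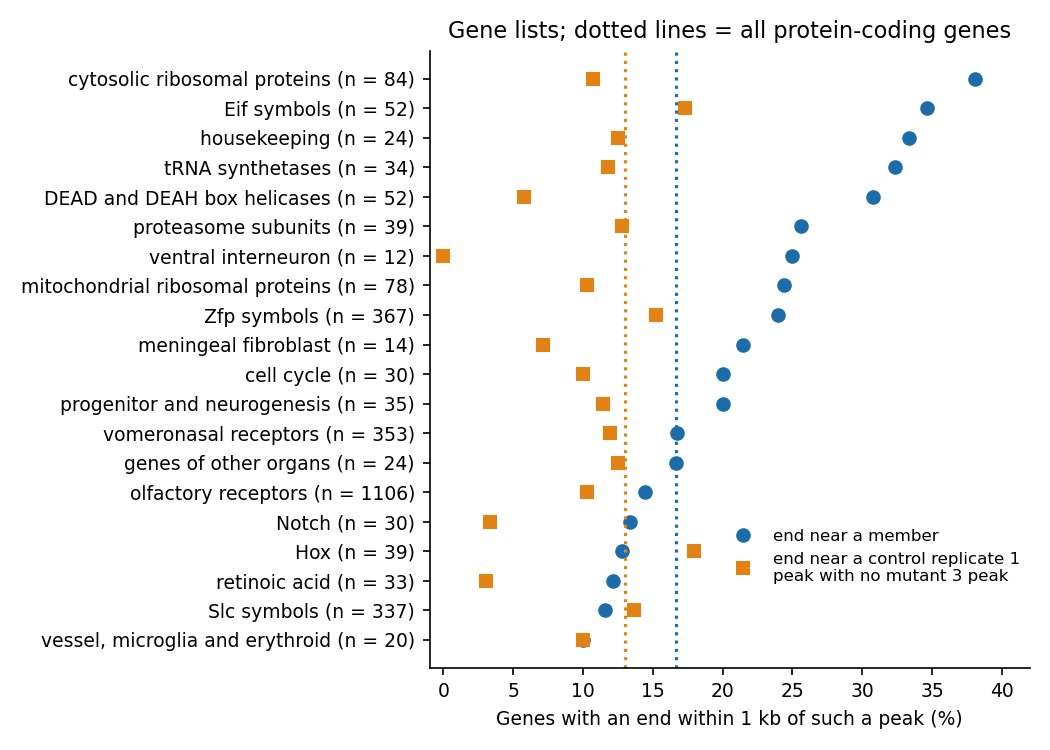
Percent of the genes of each list with an end within 1 kb of a member (circles) or of a control replicate 1 peak with no mutant replicate 3 overlap (squares), with the number of genes in each list. Dotted lines mark all protein-coding genes, 16.7% and 13.0%, and the circles run from 10% to 38.1%.

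Genes for making and turning over proteins were among the highest. Cytosolic ribosomal protein genes had a member at 32 of 84 (38.1%), against 10.7% with an unshared peak. Symbols of the Eif series, translation initiation factors, had 18 of 52 (34.6%, against 17.3% with an unshared peak) and tRNA synthetases 11 of 34 (32.4%, against 11.8%). DEAD and DEAH box RNA helicases had 16 of 52 (30.8%), against 5.77% with an unshared peak. Mitochondrial ribosomal proteins had 19 of 78 (24.4%, against 10.3%) and proteasome subunits 10 of 39 (25.6%, against 12.8%). The housekeeping list had 8 of 24 (33.3%, against 12.5%). The split into members and unshared peaks used mutant 3, so these contrasts are not independent of the selection. Mutant 3 touched 86.5% of the Eif list, 87.2% of the proteasome list and 95.8% of the housekeeping list, against 70.8% of all genes. Control 1 touched 50%, 43.6% and 54.2% of them, against 32.6%. Among CpG-rich starts alone, members touched 6 of 36 in the Eif list (16.7%) and 3 of 17 in tRNA synthetases (17.6%). Both were near the 16.5% of all genes. The share there was 32.6% for cytosolic ribosomal genes, 31.25% for the housekeeping list and 30% for helicases. Mitochondrial ribosomal proteins had 24% and proteasome subunits 21.7%. The ribosomal genes are short, with a median length of 3179 bp against 17330 bp for all genes, and the helicase genes are not, at 22442.5 bp.

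The 34 member regions at cytosolic ribosomal genes had 6 to 20 steps in control 1 (median 10.5) and 3 to 9 in mutant 3 (median 6). None was called in control 2 or control 3, which called 0.569% and 2.18% of all members. Mutant 1 called 1 (2.94%, against 9.07% of all members) and mutant 2 called 14 (41.2%, against 52.2%). Rpl35 had 16 steps in control 1, 4 in mutant 2 and 6 in mutant 3. Rps6 had 15, 2 and 6. Over the whole list of 84 genes, mutant 1 had a peak at 10.7% and mutant 2 at 53.6%, near the shares of all genes (10.4% and 57.0%), whereas mutant 3 had 90.5% against 70.8% and control 1 48.8% against 32.6%. At the helicase genes 17 member regions had 7 to 14 steps in control 1. Mutant 2 had a peak over 3 of them (17.6%, against 52.2% of all members) and mutant 1 over 1 (5.88%, against 9.07%). Dhx30 had 14 steps in control 1, 3 in mutant 2 and 8 in mutant 3. Over the whole helicase list the shares were 13.5% in mutant 1, 61.5% in mutant 2, 92.3% in mutant 3 and 38.5% in control 1. For tRNA synthetases they were 17.6%, 67.6%, 97.1% and 47.1%, and for mitochondrial ribosomal proteins 7.69%, 70.5%, 92.3% and 38.5%. The cytosolic ribosomal list was thus near all genes in mutant 1 and mutant 2. The helicase and tRNA synthetase lists were higher on few genes, at 7 of 52 and 6 of 34 in mutant 1 and 32 of 52 and 23 of 34 in mutant 2. The Eif list had 1 of 52 (1.92%) in mutant 1 and 31 of 52 (59.6%) in mutant 2. Differences between these lists were not tested.

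Retinoic acid genes had a member at 4 of 33 (12.1%), under the background of 16.7%. Among them were Rara, the receptor profiled here, Rdh10, which makes retinaldehyde from retinol, and Dhrs3, which reverses that step. Rara had 11 steps in control 1, 4 in mutant 2 and 7 in mutant 3, and no peak in control 2, control 3 or mutant 1 (chr11:98927063-98928369). Dhrs3 had 11 steps in control 1 and 4 in mutant 3 (chr4:144892350-144895519), with no peak in the other 4 libraries. The region of Rdh10 was shared with Rpl7 and had 8 steps in control 1, 3 in mutant 1, 4 in mutant 2 and 7 in mutant 3. No control library other than control 1 had a peak over any of the 4, and over all members control 2 and control 3 called 0.569% and 2.18%. 

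Notch pathway genes had a member at 4 of 30 (13.3%), none of them a receptor, a ligand or a Hes or Hey effector. Mib1, a ubiquitin ligase that activates ligands, had 13 steps in control 1, 4 in mutant 2 and 4 in mutant 3. Maml3, a coactivator, had 12, 5 and 3. Aph1a, a γ-secretase subunit, had 10, 4 and 4. Mutant 2 had a peak over all 4, against 52.2% of all members. None of the 4 was called in control 2, control 3 or mutant 1, which called 0.569%, 2.18% and 9.07% of all members.

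Progenitor and neurogenesis genes had a member at 7 of 35 (20%), with 10 regions in all, and Sox2 was not among them. Neurod6 had 10 steps in control 1, 7 in mutant 2 and 8 in mutant 3. Bcl11a, a cortical neuron factor, had 12, 7 and 6. Sox12 had 2 regions, the one at its start with 7, 5 and 8 steps, and Tubb3, the neuronal tubulin, also had 2. Sox4 and Emx2 had 13 and 9 steps in control 1 and 7 and 5 in mutant 3, with no peak in the unused libraries. Of the 10 regions, 5 were called in mutant 2, against 52.2% of all members. None was called in control 2, control 3 or mutant 1, against 0.569%, 2.18% and 9.07% of all members. Cell cycle genes had a member at 6 of 30 (20%), among them Mcm7, Mcm4, Cdk4 and Ccne2.

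Genes that cortical progenitors are not known for were also touched. Meningeal fibroblast genes had a member at 3 of 14 (21.4%), namely Col1a1, Pdgfra and Ptgds, and ventral interneuron genes at 3 of 12 (25%), namely Dlx2, Dlx6 and Gad1. Genes of vessels, microglia and red cells had 2 of 20 (10%). Genes of other organs had 4 of 24 (16.7%), the same share as all genes. Those were Alb and Apoa1 of liver, Ins1 of pancreas and Sftpc of lung. Alb had 14 steps in control 1 and 5 in mutant 3, with no peak elsewhere.

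Large gene families and the Hox clusters had shares on both sides of the background. Olfactory receptor genes had a member at 160 of 1106 (14.5%) and vomeronasal receptor genes at 59 of 353 (16.7%). Their promoter windows were nearly free of CpG-rich cases (0% and 0.325%). Zfp symbols, mostly zinc finger genes, had 88 of 367 (24.0%), solute carriers 39 of 337 (11.6%) and Hox genes 5 of 39 (12.8%). In solute carriers and Hox genes the share with an unshared peak was higher than that with a member, at 13.6% and 17.9%. Mutant 2 had a peak over 65.5% of the 165 member regions at olfactory receptors and 66.1% of the 62 at vomeronasal receptors. It called 61.4% of the 88 at Zfp symbols, 64.3% of the 42 at solute carriers and 0 of the 3 at Hox genes. Of all members it called 52.2%. The olfactory receptor, vomeronasal receptor and zinc finger families share repeated sequence, so the placement of reads among similar copies is uncertain. On the X chromosome lay 26 members (0.821%), against 1.16% of gene-end peaks and 2.23% of all control 1 peaks.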

How the data were processed

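The data were the peak lists of the 6 Myc-tag CUT&RUN libraries. Peaks were called with SEACR on mm10, per the submitters' processing notes, and the deposited lists give each peak's total and maximum signal. The sources used here do not state the aligner, the SEACR settings or any scaling of the signal. Within a library the maximum signal took whole multiples of 1 step. Genes were the RefSeq protein-coding genes of GRCm38.p6, the same assembly as mm10, and strand came from the RefSeq promoter table.

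From the files, overlaps, distances to gene ends, within-library height percentiles and promoter contents were computed with Python 3.11.15, numpy 2.4.6 and pandas 2.3.3. Libraries were the replicates. Genotypes were compared over 6 assignments and sets over 16 sign patterns by exact permutation, with Benjamini-Hochberg adjustment. On simulated data 200 of 200 planted overlaps were recovered.

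Members and lists were chosen with earlier results of these data known. Named genes were those with members in the most unused libraries, the 6 highest members of control 1 (sixth place was a tie of 3 members, and the other 2 were added after their values were seen), all touched genes of the retinoic acid, Notch and progenitor lists, and up to 4 of each other list, by libraries called and height. Some genes that this rule names are not reported here. Alternatives changed the overlap, window, threshold, list length, minimum height and width, and left out each library. The step sizes and peak numbers above set the precision, since read depth is unknown.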

Additional observations from a re-analysis of the deposited data

Results flagged for a closer look

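The share of members called, minus the share of control 1 gene-end peaks without a mutant 3 overlap, had opposite signs in the genotypes. It averaged -0.304 percentage points over control 2 and control 3 and 4.7 points over mutant 1 and mutant 2, and each library had the sign of its genotype. The difference between the genotypes was not tested. Control 2 called 18 members and 18 unshared peaks, and control 3 called 69 and 69. The negative signs there came only from the larger number of members. Control 2 and control 3 together called 87 members and 86 unshared peaks. Without mutant 2 the mean over the other libraries was 0.261 points. The lists differ in length, and with lists of equal length the mean over all 4 libraries was 0.149 points, against 2.20.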

How the results depend on the processing

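The genotype difference and the difference in call share from unshared peaks kept their direction in all 11 alternatives. Leaving out 1 library at a time, they ran from 7.69 to 50.8 and from 0.261 to 3.09 percentage points. With lists of equal length they fell to 2.08 and 0.149, and with 500 bp around the maximum to 13.7 and 0.927. The difference in call share from the tall set ran from -2.89 to -0.305, and turned to 0.138 with a limit of 13 and to 0.508 without the widest 10% of peaks. The height percentile against unshared peaks turned to -0.977 with 500 bp around the maximum, -0.154 with lists of equal length and -0.0247 without the widest 10%, and ran from -0.731 to 4.02 over left-out libraries. The cause was not tested. The height percentile against the tall set stayed negative in the 9 alternatives that could be computed, from -20.5 to -12.3 over left-out libraries. In the other 2, 500 bp around the maximum and without the widest 10%, a library had no called tall region. The number of members was 7673 with a window of 5 kb. The share at gene starts was 71.7% with a window of 500 bp. No paired analysis was possible because the control and mutant libraries outside the selection shared only replicate number 2. Unknown depth and unequal list lengths limit every call share.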
